A study of Mus musculus with 2 samples.

Results

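Mir137, Mir139, Mir153, Mir488, Mir132 and Mir212 are 6 microRNA (miRNA) genes that are known from neurons and are each present as a single copy in the mouse genome. They were taken by name from the 1973 miRNA gene rows of a small RNA profile of mouse forebrain. The profile had 1 group of B6NCrl embryos at embryonic day 15.5, described as healthy, with 2 biological replicates. Replicate 2 pooled the forebrains of 62 embryos and replicate 1 those of 78, both of mixed sex, so each library is an average over many animals. No treated, mutant or other-stage group was present, and every ratio below sets replicate 2 over replicate 1. In such bulk tissue, fewer cells of a type and less RNA per cell cannot be told apart.

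MiRNAs are cut from hairpin precursors into short mature strands, one from each arm (5p and 3p). Pairing of bases 2 to 8 of the mature strand, the seed, with messenger RNAs lowers the output of those messengers. In the nervous system, miR-137 acts on neuronal differentiation and synapses, and its human locus is linked to schizophrenia. MiR-132 and miR-212 are induced by neuronal activity through the transcription factor CREB, and miR-132 promotes dendrite growth. MiR-153 represses the messenger of the synaptic protein alpha-synuclein.

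The mature strands are shown because each of them mapped to 1 gene and only 1 seed was shared. Sequences are from RefSeq (GRCm38.p6), written 5′ to 3′ with the seed in capitals, and all 6 genes matched.
miR-137-5p: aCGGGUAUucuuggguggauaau
miR-137-3p: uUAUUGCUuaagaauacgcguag
miR-139-5p: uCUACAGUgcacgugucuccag
miR-139-3p: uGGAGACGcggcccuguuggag
miR-153-5p: gUCAUUUUugugacguugcagcu
miR-153-3p: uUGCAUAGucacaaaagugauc
miR-488-5p: cCCAGAUAauagcacucucaa
miR-488-3p: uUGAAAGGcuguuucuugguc
miR-132-5p: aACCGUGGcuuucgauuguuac
miR-132-3p: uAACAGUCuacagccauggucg
miR-212-5p: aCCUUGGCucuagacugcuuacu
miR-212-3p: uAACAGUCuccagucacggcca

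Each of these mature sequences occurred in exactly 1 gene of the RefSeq miRNA table, as did 1620 of its 1674 distinct mature sequences. The 6 genes were chosen as single-copy genes, so this is no separate result. The seed AACAGUC was carried by miR-132-3p and miR-212-3p and by no other mature strand of that table, and the remaining seeds of the 6 genes occurred in no second gene. A messenger site that pairs with AACAGUC reads GACUGUU, and one that pairs with the miR-137-3p seed reads AGCAAUA. The files count reads per gene, so the 5p and 3p strands of a gene could not be measured separately.

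The genes lie on 5 chromosomes. Coordinates are mm10 (GRCm38), counted from 1, and all 6 genes are on the plus strand. Mir137 (ENSMUSG00000065569, chromosome 3, 118433857 to 118433929) overlaps an exon in 3 of the 6 transcripts of the noncoding gene Gm26871. Mir139 (ENSMUSG00000065446, chromosome 7, 101475376 to 101475443) lies in intron 2 of the 30 introns of Pde2a, which encodes a cyclic nucleotide phosphodiesterase, and also in an intron of the overlapping gene Gm45837. Mir153 (ENSMUSG00000065538, chromosome 12, 117250817 to 117250885) lies in intron 19 of the 22 introns of Ptprn2, which encodes a membrane protein of dense-core vesicles. Mir488 (ENSMUSG00000070103, chromosome 1, 158505625 to 158505733) lies in intron 5 of the 22 introns of Astn1, which encodes an adhesion protein of neurons migrating along glia. Intron numbers, from GENCODE M21, are of the longest transcript that holds the miRNA in an intron. Genes annotated on the opposite strand overlap Mir153 (Gm5441) and Mir488 (Gm37679). Mir212 (ENSMUSG00000065590, chromosome 11, 75173388 to 75173478) and Mir132 (ENSMUSG00000065537, 75173682 to 75173747) lie in intron 1 of the noncoding gene 1700016P03Rik, with 203 bases between them.

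Replicate 2 held 4753555 counts on the strand of a miRNA gene and replicate 1 held 4464927, 36.4% and 38.0% of their reads. Levels are given as CPM, counts scaled to 1000000 per library over the gene rows. At this depth, 3 counts correspond to 0.631 CPM in replicate 2 and to 0.672 CPM in replicate 1, which is the level that a count of 0 allows. Multi-mapping reads, with shares of 42.4% in replicate 2 and 44.6% in replicate 1, were in no gene row. No molecular identifiers are given, so reads are not independent molecules and intervals and tests cover counting error only.

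All 6 genes had at least 10 counts in each library, as had 370 of the 1973 gene rows. Together they held a share of 1.55% in replicate 2 (exact Clopper-Pearson 95% interval 1.54 to 1.56) and 1.62% in replicate 1 (1.61 to 1.63). Mir137 alone made up 54.3% of this sum in replicate 2 and 60.2% in replicate 1. Without Mir137, the other 5 genes held 0.710% in replicate 2 and 0.644% in replicate 1. The median level of the 6 genes was 1348 CPM, against 111 CPM over the 370 genes. Some of the 370 genes share mature strands with other genes, and multi-mapping reads were in no gene row. Their levels can thus be too low, while the 6 were chosen as single-copy genes. By how much this raises the 6 in medians and ranks was not tested.

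Mir137 had 40104 counts in replicate 2 and 43519 in replicate 1, or 8437 and 9747 CPM. Its mean of 9092 ± 927 CPM (SD, n = 2) placed it at rank 21 of all gene rows, at or above 94.6% of the 370 genes with 10 counts in each library. Mir139, encoded within Pde2a, had 3852 CPM in replicate 2 and 3873 CPM in replicate 1. Its mean was 3862 ± 15.0 CPM (SD, n = 2), and it stood at rank 43 in both libraries. Mir153, encoded within Ptprn2, had 2414 CPM in replicate 2 and 1811 CPM in replicate 1, at ranks 60 and 71. Its mean was 2112 ± 427 CPM (SD, n = 2), the widest relative spread of the 6 genes, with a coefficient of variation of 20.2%.

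The other genes of the set were lower. Mir132, the activity-induced miRNA, had 2895 counts in replicate 2 and 2485 in replicate 1, or 609 and 557 CPM, with a mean of 583 ± 37.1 CPM (SD, n = 2) and rank 109. Mir488, encoded within Astn1, had 888 counts in replicate 2 and 776 in replicate 1, or 187 and 174 CPM, with a mean of 180 ± 9.20 CPM (SD, n = 2) and rank 159. Mir212 had 167 counts in replicate 2 and 120 in replicate 1, or 35.1 and 26.9 CPM, with a mean of 31.0 ± 5.84 CPM (SD, n = 2) and rank 254. Mir212 was thus the only one of the 6 below the median of the 370 genes, and its 95% Clopper-Pearson interval was the widest in relative terms, from 30.0 to 40.9 CPM in replicate 2 and from 22.3 to 32.1 CPM in replicate 1.

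**Figure D1:**
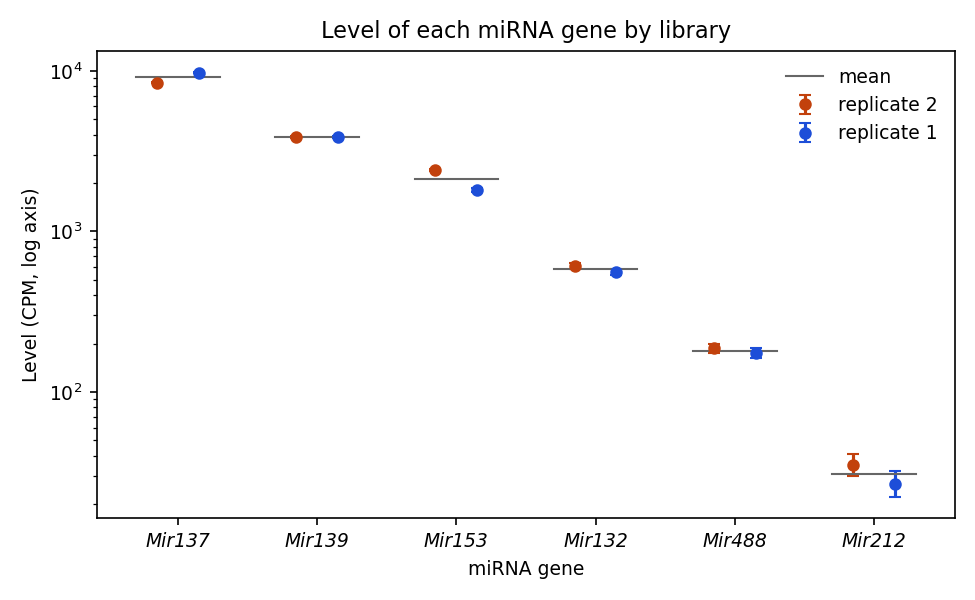
Level of each gene in CPM on a log axis, with replicate 2 and replicate 1 as points, exact 95% Clopper-Pearson intervals as bars and the mean as a line. The genes step down from Mir137 at 9092 CPM to Mir212 at 31.0 CPM, and no gene's points overlap those of its neighbour in the order.

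The order was Mir137, Mir139, Mir153, Mir132, Mir488 and Mir212, and it was the same in both libraries. This is an order of read counts, and whether the strands of different genes are captured equally well was not tested. Each of the 5 neighbouring pairs differed in mean level by more than the larger SD of the pair. The smallest step was from Mir139 to Mir153, with a ratio of means of 1.83, and the largest was from Mir488 to Mir212, with a ratio of 5.82. With 2 libraries, a permutation test of such a difference could not have passed a threshold of 0.05, and none was run. Mature strands of the 6 genes were 21 to 23 bases long. Divided by the length of the longer strand, the levels ran from 395 CPM per base for Mir137, through 176 for Mir139, 91.8 for Mir153, 26.5 for Mir132 and 8.59 for Mir488, to 1.35 CPM per base for Mir212, in the same order.

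**Figure D2:**
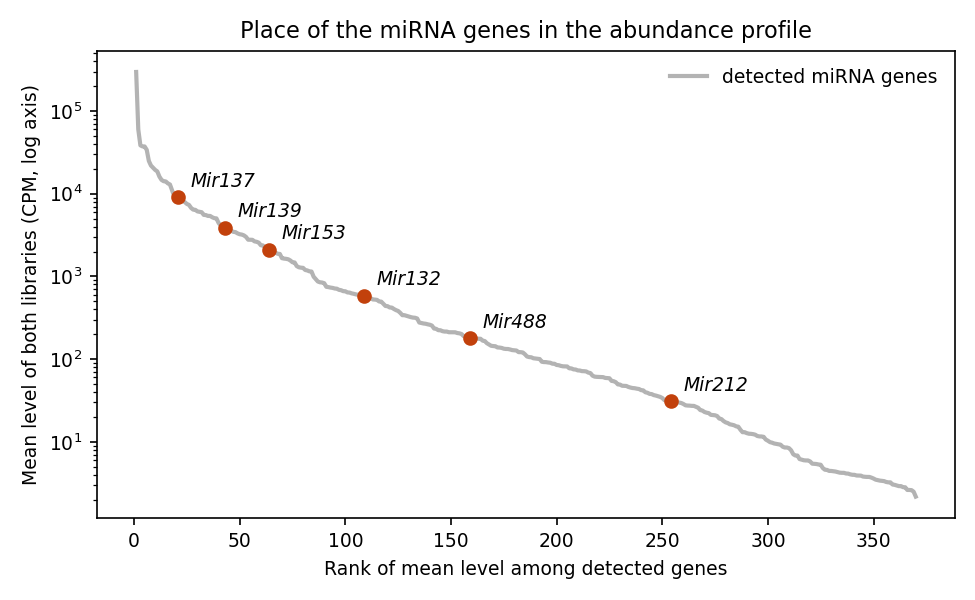
Mean level in CPM on a log axis against rank for the 370 miRNA genes that reached 10 counts in replicate 2 and in replicate 1 (grey line), with the 6 genes as points. They are spread along most of the profile, from Mir137 at rank 21 to Mir212 at rank 254.

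Mir132 and Mir212 share a host intron and a seed, and their levels were far apart. The ratio of Mir132 to Mir212 was 17.3 in replicate 2 (exact 95% interval 14.8 to 20.4) and 20.7 in replicate 1 (17.2 to 25.1), with a mean of 19.0 ± 2.38 (SD, n = 2). The intervals overlapped, and a ratio within a library does not depend on how libraries are scaled. It is a ratio of read counts, and whether a library captures the strands of both genes equally well was not tested. Their precursors are shown because both lie in 1 intron yet gave such different counts, with the mature strands in capitals.
Mir132: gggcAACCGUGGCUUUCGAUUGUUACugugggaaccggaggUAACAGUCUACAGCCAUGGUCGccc
Mir212: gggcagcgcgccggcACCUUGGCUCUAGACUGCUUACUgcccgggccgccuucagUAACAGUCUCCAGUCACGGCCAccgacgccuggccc

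The hairpin of Mir132 is 66 bases long with a GC content of 57.6%, and that of Mir212 is 91 bases long with a GC content of 69.2%. The predicted folding energy was -0.564 kcal/mol per base for Mir132 and -0.456 for Mir212. Of the 1005 hairpins in the RefSeq table, 6.67% were more stable per base than Mir132 and 28.4% were more stable than Mir212. The 3p strands were identical at 17 of 22 positions (77.3%), and the lines below mark the positions that differ in capitals.
miR-132-3p: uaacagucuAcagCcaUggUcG
miR-212-3p: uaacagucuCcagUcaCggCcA

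Counted from 1 at the 5′ end, with the base of miR-132-3p first, the differences were A10C, C14U, U17C, U20C and G22A, all outside the seed. The remaining hairpins were 73 bases (Mir137), 68 bases (Mir139), 69 bases (Mir153) and 109 bases (Mir488) long. Their GC contents were 45.2%, 58.8%, 42.0% and 42.2%, against a median of 51.7% over the 1005 hairpins. Their predicted energies per base were -0.427, -0.524, -0.446 and -0.355 kcal/mol, against a median of -0.406. Mir488 was thus the only one of the 6 hairpins less stable per base than the median.

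The strand column with the larger sum over all gene rows was taken as the annotated strand, so the side on which most counts lie is set by that choice. Over the 6 genes, the other column held 1 count in replicate 2, at Mir137, beside 73839 in the column used. In replicate 1 there were 0 beside 72276. A count of 0 allows an opposite-strand level of up to 0.00689% of the sense counts for Mir137 in replicate 1. For Mir212, at its lower depth, it allows up to 1.80% in replicate 2 and 2.50% in replicate 1. Over all gene rows, 1.49% of counts in replicate 2 and 1.59% in replicate 1 lay on the opposite strand. The row of Gm24155, a miRNA annotated 791 bases from Mir137 on the same strand, had 0 counts in both libraries.

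A two-sided exact binomial test set the libraries against each other in the 457 gene rows with 10 counts or more over both, with Benjamini-Hochberg adjustment over all 457. It compares these 2 libraries, not conditions, and tells only whether they differ beyond counting error. Of the 6 genes, 3 were called at an adjusted p below 0.05, against 36.3% of all genes tested. Mir153 and Mir132 were higher in replicate 2, a direction called in 19.3% of genes tested, and Mir137 was lower, as were 17.1%. Of all calls, 53.0% were higher in replicate 2, a share that was 42.9% with TMM scaling, 38.4% with the total of all reads and 69.1% with Mir99a, the most abundant gene, left out of the total. Deeper genes were called more often: of the genes with 1000 counts or more over both libraries, 67.0% were called. Of the 6 genes 5 were of that depth, and 3 of these 5 were called, near the share of genes of that depth.

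Mir153 was 1.33-fold higher in replicate 2, and its log2 ratio of 0.42 had an exact 95% interval of 0.37 to 0.46 (exact binomial test, adjusted p = 3.99e-87). This ratio was larger in size than that of 78.1% of the 370 genes with 10 counts in each library. Mir137 was lower in replicate 2, and its log2 ratio was -0.21 (-0.23 to -0.19, exact binomial test, adjusted p = 2.85e-95), larger in size than 54.9% of those genes. Mir132 was higher by 0.13 on the log2 scale (0.052 to 0.21, exact binomial test, adjusted p = 0.00358). Its call was lost with TMM scaling, at 0.090 on that scale (exact binomial test, adjusted p = 0.0620), and with the total of all reads, at 0.065 (exact binomial test, adjusted p = 0.203).

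The other 3 genes did not pass the test. Mir139 had a log2 ratio of -0.0079 (-0.038 to 0.022, exact binomial test, adjusted p = 0.764), a smaller ratio than that of all but 3.24% of the 370 genes. Its calls went in opposite directions under other totals. Without Mir99a in the total Mir139 was called higher, at 0.052 (exact binomial test, adjusted p = 0.00244), and under TMM it was called lower, at -0.048 (exact binomial test, adjusted p = 0.00570). Mir488 had a log2 ratio of 0.10 (-0.036 to 0.24, exact binomial test, adjusted p = 0.272). Mir212 had a log2 ratio of 0.38 (0.039 to 0.74, exact binomial test, adjusted p = 0.0665), close in size to that of Mir153 at far fewer counts, and it passed when 100 counts in total were required, at adjusted p = 0.0472. At the depth of Mir212, a difference of the size of that of Mir132 would not have been detectable.

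**Figure D3:**
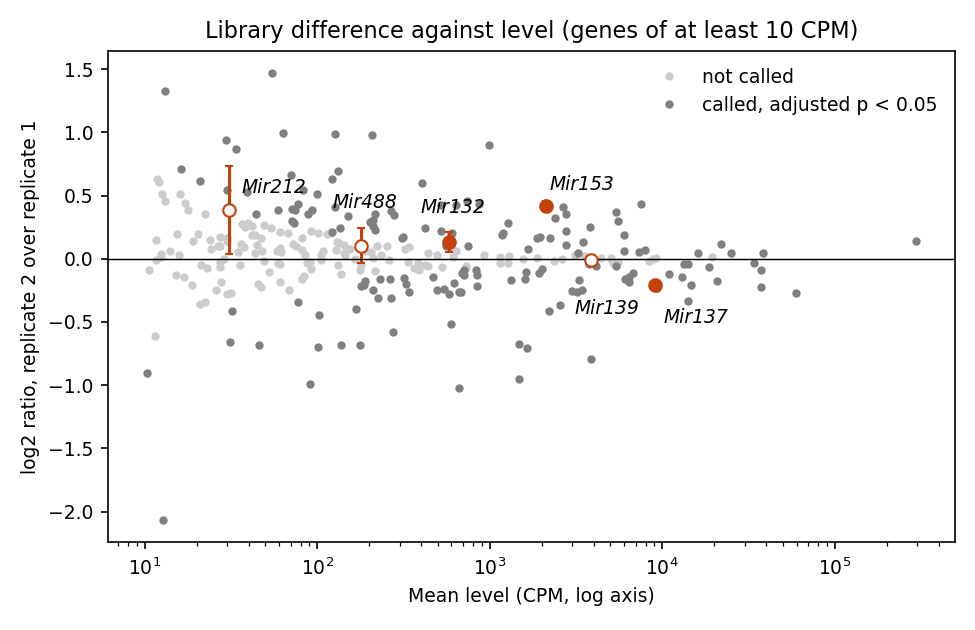
Log2 ratio of replicate 2 over replicate 1 against mean level in CPM on a log axis for tested genes of at least 10 CPM. The 6 genes are in orange with exact 95% intervals, filled where called, and lie between -0.21 for Mir137 and 0.42 for Mir153, inside the range of the other genes.

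The spread between replicates was also set against that of genes of like level. The trend of edgeR's dispersion over the 370 genes gave a coefficient of variation of 13.8% at the level of Mir153, which itself varied by 20.2%. At the level of Mir212 the trend stood at 17.3%, and Mir212 varied by 18.8%. The trend was estimated after TMM scaling and leaves out counting error, while the coefficients of the 6 genes are from CPM and include it. These measures are unlike, so Mir212, with few counts, cannot be placed above or below its trend. The other 4 genes had coefficients below their trend. Each coefficient rests on 2 libraries, and the share of the 370 genes below the trend was not computed. This is therefore no trait of the 4 genes. Mir137 varied by 10.2% against 12.9%, Mir132 by 6.37% against 14.8%, Mir488 by 5.10% against 15.5% and Mir139 by 0.388% against 13.3%. The median absolute log2 ratio was 0.17 over the 6 genes, 0.19 over the 370 genes with 10 counts in each library and 0.23 over the 457 genes tested.

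Ratios between the 6 genes within a library do not depend on scaling. Of the 15 pairs of the 6 genes, 9 had ratios whose exact 95% intervals lay apart in the libraries and 6 had intervals that overlapped. The intervals cover counting error only and are narrower for deeper genes. The share of pairs apart among all genes was not computed, so these counts are no trait of the 6 genes. The largest shift was that of Mir137 over Mir153, at 3.50 in replicate 2 (3.42 to 3.57) and 5.38 in replicate 1 (5.26 to 5.51), a log2 shift of -0.62. All 5 pairs with Mir137 had intervals that lay apart, and each of these ratios was lower in replicate 2. These 5 pairs share the counts of Mir137 and are not separate results. Mir139 over Mir153 stood at 1.60 in replicate 2 (1.56 to 1.63) and 2.14 in replicate 1 (2.08 to 2.20), apart as well. Mir132 over Mir488 shifted least, by 0.026 on the log2 scale, at 3.26 in replicate 2 (3.02 to 3.52) and 3.20 in replicate 1 (2.95 to 3.48). Mir153 over Mir212 stood at 68.7 in replicate 2 (59.0 to 80.6) and 67.4 in replicate 1 (56.3 to 81.4).

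**Figure D4:**
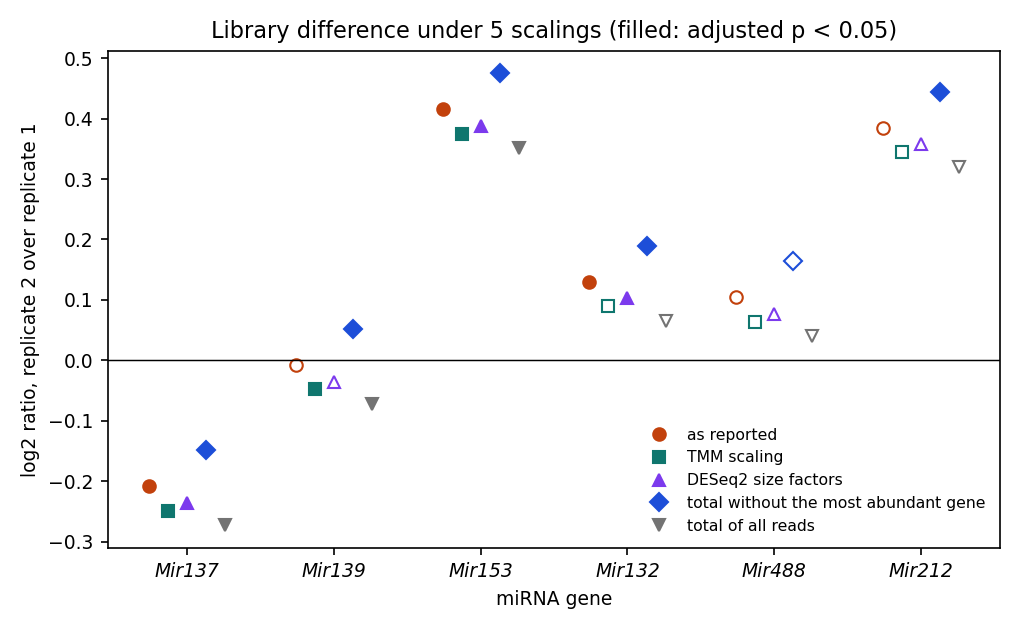
Log2 ratio of replicate 2 over replicate 1 for each gene under 5 scalings of the libraries, filled where the adjusted p of the exact binomial test was below 0.05. Mir137 stayed below 0 and Mir153 above 0 under all 5, while Mir139 lay on either side of 0, from -0.072 to 0.052.

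Other neuron-enriched miRNAs come from more than 1 gene copy, and 11 such genes were set beside the 6. They are the Mir124a genes, which repress non-neuronal messengers, and the Mir128, Mir129, Mir138 and Mir218 genes, the last known from motor neurons. A strand of such a pair is shown to contrast with the single-copy strands above: miR-128-3p is the same in Mir128-1 on chromosome 1 and Mir128-2 on chromosome 9.
miR-128-3p: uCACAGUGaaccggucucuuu

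All 6 genes above, chosen as single-copy genes, had 2 mature strands that were found in no other gene. Of the 8 genes of the Mir128, Mir129, Mir138 and Mir218 pairs, 7 had 1 such strand in the RefSeq table and Mir129-1 had none. Reads placed at both copies were in no gene row, so these levels can be too low, and by how much was not tested. Mir128-1 stood at 1948 CPM in replicate 2 and 2056 CPM in replicate 1, and Mir128-2 at 1139 and 1165 CPM. Mir138-1 stood at 708 CPM in replicate 2 and 744 CPM in replicate 1, and Mir138-2 at 353 and 372 CPM. The Mir129 genes were higher in replicate 2, Mir129-2 with 274 CPM against 139 CPM in replicate 1 and Mir129-1 with 83.9 against 42.1 CPM. Mir218-2 had 28.6 CPM in replicate 2 and 28.7 CPM in replicate 1, and Mir218-1 had 14.3 and 9.18 CPM.

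The Mir124a genes had 17, 15 and 10 counts in replicate 2 and 9, 6 and 0 counts in replicate 1, for Mir124a-1, Mir124a-2 and Mir124a-3. All 11 genes were tested, and 3 were called higher (Mir129-1, Mir129-2 and Mir124a-3) and 1 lower (Mir128-1) in replicate 2, so 4 of 11 were called, beside 36.3% of all genes tested. Summed, they held 4558 CPM in both libraries, against 15533 CPM in replicate 2 and 16188 CPM in replicate 1 for the 6 single-copy genes. Multi-mapping reads were in no gene row, so the Mir124a counts and the sum of the 11 genes can be too low. By how much was not tested, so the sums do not rank the 2 kinds of gene.

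Genes outside the set that stood nearest to each member in mean level, by log2 of CPM with 1 CPM added over 2 libraries, were of mixed kinds. They were Mir106b for Mir137 (9249 ± 9.59 CPM), Mir21a for Mir139 (3833 ± 463 CPM) and Mir128-1 for Mir153 (2002 ± 75.9 CPM). Further down they were Mir7-1 for Mir132 (594 ± 148 CPM), Mir3074-1 for Mir488 (179 ± 4.40 CPM) and Mir96 for Mir212 (31.2 ± 9.98 CPM), each SD over n = 2. These neighbours differed between the libraries in their own ways. Mir21a was called higher in replicate 2, by 0.25 on the log2 scale, beside the uncalled -0.0079 of Mir139. Mir7-1 was called lower, at -0.51, beside 0.13 for Mir132. Mir106b stood at 0.0021 beside -0.21 for Mir137. Mir128-1 was called lower, at -0.077, beside 0.42 for Mir153. Mir96 was called lower, at -0.66, beside 0.38 for the uncalled Mir212. Mir3074-1 was not called, at -0.050, beside 0.10 for the uncalled Mir488.

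MiRNAs of other cell types in forebrain were measured beside these genes. The choroid plexus list, of miRNAs from the epithelium that secretes cerebrospinal fluid, summed to 2343 CPM in replicate 2 and 4117 CPM in replicate 1. Of its 6 genes 5 were called lower in replicate 2, beside 17.1% of all genes tested, and Mir1912 was not called (exact binomial test, adjusted p = 0.316). Mir204 had the highest mean level of the list. Mir204, Mir1298 and Mir448 were among the genes with over 1000 counts, of which 67.0% were called in either direction. Whether genes of the list share a transcript was not examined, so their calls are not counted as separate results. Mir137 was lower in replicate 2 as well, and Mir153 was higher. The neural progenitor list summed to 6843 CPM in replicate 2 and 5722 CPM in replicate 1 over 3 of 4 genes with a row. Most of this sum was Mir92b, at 6123 CPM in replicate 2 and 4971 CPM in replicate 1. Mir92b alone of these was called, as higher, at a log2 ratio of 0.30, and the uncalled Mir9-3 and Mir9-2 stood at -0.059 and -0.28. Each mature strand of the Mir9 genes is found in more than 1 gene. Multi-mapping reads were in no gene row, so the Mir9 levels and this sum can be too low. The mural and mesenchymal list summed to 6764 CPM in replicate 2 and 5997 CPM in replicate 1 over 6 genes, of which 5 were tested. Of these 5, 3 were called higher (Mir143, Mir140 and Mir214), beside 19.3% of all genes tested. Mir143 and Mir140 were among the genes with over 1000 counts, of which 67.0% were called in either direction. No choroid plexus, progenitor or mural gene was at 0 in both libraries. The part of these differences in those of Mir137, Mir153 and Mir132 was not tested.

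The remaining lists held less or differed less between libraries. Their calls stand beside 36.3% of all genes tested, with 19.3% called higher and 17.1% called lower in replicate 2. Endothelial Mir126a, at 16377 CPM in replicate 2 and 15856 CPM in replicate 1, was called higher by 0.047 on the log2 scale, a direction that turned with the total of all reads. The oligodendrocyte lineage list summed to 462 CPM in replicate 2 and 421 CPM in replicate 1 over 3 genes, led by Mir219a-1, which was called higher. The erythroid list, led by Mir451a, summed to 165 CPM in replicate 2 and 140 CPM in replicate 1, and Mir144 alone of its 3 genes was called, as higher. The immune list, led by Mir223, summed to 167 CPM in replicate 2 and 164 CPM in replicate 1 over 2 of 3 genes, with Mir223 called higher and Mir155 lower. The liver list, led by Mir192, summed to 238 CPM in replicate 2 and 210 CPM in replicate 1, and Mir122, the miRNA of hepatocytes, was the 1 of 4 genes called higher, at 88.6 and 65.6 CPM. The muscle list summed to 5.26 CPM in replicate 2 and 21.1 CPM in replicate 1, nearly all from Mir206, called lower, and Mir1a-1, Mir133a-1 and Mir133a-2 were at 0.

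**Figure D5:**
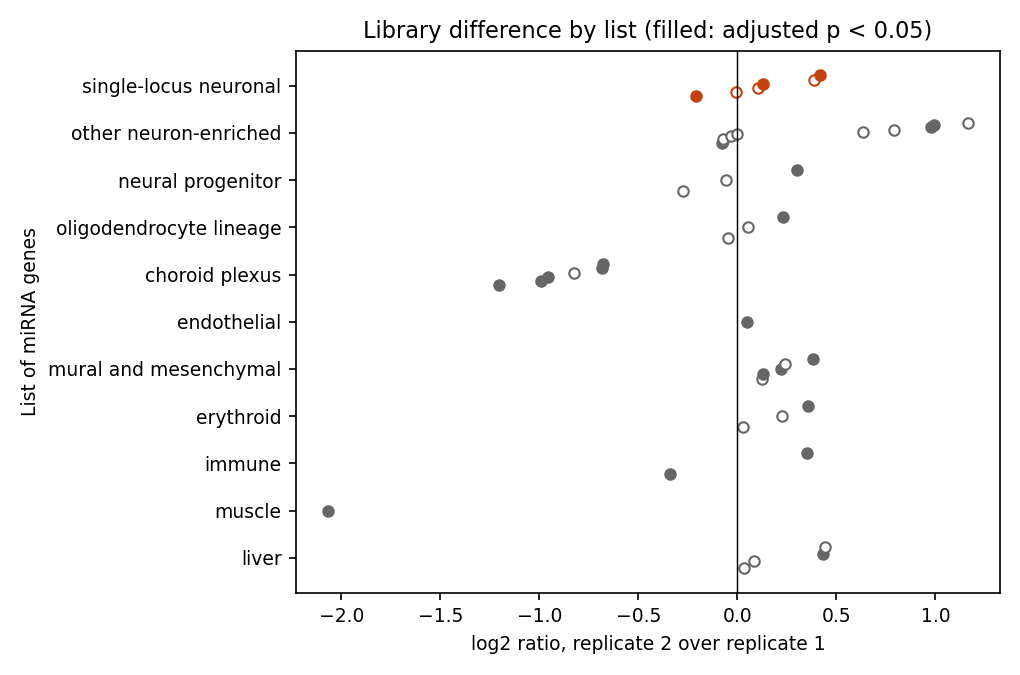
Log2 ratio of replicate 2 over replicate 1 for each tested gene of the 6 single-locus neuronal genes (orange, top) and of the lists of other neuron-enriched and cell type miRNAs, filled where called. Mir124a-3, with 0 counts in replicate 1, is left out, and the 6 choroid plexus genes lie between -1.20 and -0.68 while the 6 neuronal genes lie between -0.21 and 0.42.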

How the data were processed

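Small RNA below 30 nt was sequenced from 2 pools of mouse forebrain. The deposited tables hold whole-number read counts per miRNA gene, not normalized, on either strand and on each strand. Per the labels and deposited README text, reads were aligned to mm10 with GENCODE M4 annotation, aligner and counter not given in the sources used here. Counts in the strand column with the larger sum were taken as sense. The 4 rows that name no gene were left out of totals. Of all reads in replicate 2 and replicate 1, 42.4% and 44.6% were multi-mapping, 18.2% and 14.3% unmapped, 3.07% and 3.03% without a feature, and 0 ambiguous.

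CPM was computed from sense counts. Names and coordinates came from GENCODE M21 by gene identifier without version (1894 of 1973 rows matched), and sequences from RefSeq. The library test was exact binomial and two-sided, on a gene's 2 counts conditional on their sum and with the totals setting the null share. Ratios had 0.5 counts added. The test was run on every row with 10 counts in total, in scipy 1.17.1. It was tried on simulated counts that held counting error only. That trial does not show how the test behaves with the spread between these libraries. Since 1 group has no contrast, edgeR 4.0.16 gave TMM factors and dispersions only, and DESeq2 1.42.0 size factors. RNAfold 2.7.2 gave folding energies. No source states a shared litter or preparation batch of the pools, so the spread between them may be technical, and the test's p-values cover these 2 libraries only.

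The members and lists were chosen with earlier results of these data known. Genes named beside the 6 were the nearest in level, those sharing a seed, the listed neuron-enriched genes and the gene of highest level in each cell type list. Other genes of those lists that are named were named after their values were seen. The promoter motif search in the design was not run, and promoter windows of the 6 genes and the Mir132 and Mir212 host were not analysed here. Scalings, strand column, count minimums, the pseudocount, level per base and leaving out each replicate were varied.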

Additional observations from a re-analysis of the deposited data

How the results depend on the processing

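The 6 genes kept their order, with all 5 neighbouring pairs separated, under TMM, DESeq2 size factors, a total without Mir99a, a total of all reads and the column for either strand. Mir137 (lower) and Mir153 (higher) kept direction and call in all 8 alternatives run on the library difference. The count of called genes was 5 with Mir99a left out of the total, where Mir139 turned to a log2 ratio of 0.052 and Mir212 was also called, and 3 or 4 otherwise. Over all genes, 181 of 457 were called with Mir99a left out, 158 of 298 with a minimum of 100 counts, where 4 of the 6 were called, and 166 of 457 as reported. The call of Mir132 was lost with TMM and with the total of all reads, and Mir139 was called lower under both. The cause was not tested. The summed share of the 6 genes was 2.26% with Mir99a left out and 0.590% of all reads (chosen after seeing the data), against 1.59% as reported, since the totals differ. Of the members' levels, 13 values moved by over 1 SD, 12 of them with these totals. Without 1 replicate the share ran from 1.55% to 1.62%.

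Over all genes, 53.0% of calls were higher in replicate 2, against 42.9% with TMM, 47.9% with DESeq2 size factors, 69.1% without Mir99a and 38.4% with all reads. The median log2 ratio of all genes was 0.047, against 0.0065 with TMM, 0.019 with DESeq2 size factors, 0.11 without Mir99a and -0.018 with all reads. Leaving out a replicate gives no test of the library difference, since 1 library would be left. No paired analysis was possible because the series has 1 group. Counts limit Mir212, with 167 and 120.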
